A study of Mus musculus with 6 samples.

Results

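The 10 genes described here encode adaptors, phosphatases, a kinase, a lipase and a ubiquitin ligase that work just below the T cell receptor, and they were taken by name as the Ensembl gene rows Lat, Lcp2, Vav1, Plcg1, Themis, Prkcq, Ptprc, Ptpn6, Ptpn22 and Cblb. They are 10 of 22095 gene rows in the deposited table, and each gene had 1 gene row. The libraries came from wild-type C57BL/6 mice, an inbred laboratory strain, whose naive CD8 T cells had been purified from the spleen and grown for 48 h with IL-2 and with antibodies that bind CD3 and CD28, which trigger the receptor and its costimulator. In 3 libraries the cells also received 10 nM ponatinib, a kinase inhibitor made against BCR-ABL that hits many other kinases, and in 3 libraries they received its solvent DMSO. Both groups were therefore wild-type, stimulated and IL-2 fed, and no unstimulated library was analysed here. Nothing in the labels tells whether the replicates came from different mice or cultures; the p-values therefore reflect the spread among these 6 libraries, and that spread could be technical.

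When the T cell receptor is engaged, the kinases LCK and ZAP-70 phosphorylate the membrane adaptor LAT, which gathers SLP-76 (encoded by Lcp2), VAV1 and PLC-gamma-1 into a signalling complex. PLC-gamma-1 splits a membrane lipid into messengers that release calcium and activate protein kinase C theta (encoded by Prkcq), which leads to NF-kB. The phosphatase CD45 (encoded by Ptprc) keeps LCK ready to act, while the phosphatases SHP-1 (Ptpn6) and PEP (Ptpn22) and the ubiquitin ligase CBL-B (Cblb) restrain the cascade. For this comparison Lat, Lcp2, Vav1, Plcg1, Themis, Prkcq and Ptprc were counted as positive regulators and Ptpn6, Ptpn22 and Cblb as negative regulators. THEMIS is a T cell protein needed for thymocyte development that binds SHP-1, and CD45 can also remove activating phosphates, so both have been given roles on either side.

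Of the 7 positive regulators 5 rose with ponatinib (Lat, Lcp2, Vav1, Prkcq and Ptprc), 1 fell (Themis) and 1 was not called (Plcg1). Of the 3 negative regulators 2 fell (Ptpn6 and Cblb), none rose, and Ptpn22 was not called. The call required an adjusted p under 0.05 (Benjamini-Hochberg) in limma, fitted to log2(TPM + 1) of every gene row with a mean of at least 10 TPM. TPM are transcript levels relative to transcript length and to the library total. All 10 members passed that minimum, among 6466 gene rows. Of the 10 members 5 were called higher and 3 lower; over those 6466 rows 39.7% were called in either direction, 29.9% higher and 9.88% lower. Every called member also had groups that did not overlap, which held for 53.4% of the rows, 39.4% higher and 14% lower. The median log2 fold change was 0.26 for the positive regulators and -0.25 for the negative regulators, beside 0.10 for all kept rows. Apart from Cblb, the group means of called members differed by 1.19-fold to 1.38-fold.

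DMSO replicate 3 stood apart from the other libraries before any member was considered: on the second principal component, with 16.3% of the variance, it lay at -13.2 against 5.85 and 9.27 for DMSO replicates 1 and 2. Mitochondrially encoded genes held 7.16% to 8.19% of TPM with ponatinib and 9.76%, 10.7% and 4.78% with DMSO, the lowest being replicate 3. Defining markers of the labelled cell type were abundant, with Cd8a at 345.5 ± 22 TPM with ponatinib and 238 ± 9.41 TPM with DMSO, and Cd3e at 267 ± 25.3 TPM with ponatinib and 208.5 ± 8.5 TPM with DMSO (SD, n = 3 each). Of the 6 markers of that list Cd8a, Cd8b1 and Cd3e were called higher with ponatinib, and Cd3d (0.08 on the log2 scale), Cd247 (0.14) and Cd3g (-0.03) were not called. Among markers of other cells, 8 myeloid markers summed to 7.42 to 10.4 TPM with ponatinib and 2.61 to 3 TPM with DMSO, and 4 CD4 T cell markers to 16.4 to 19.7 TPM with ponatinib and 5.21 to 9.53 TPM with DMSO. Of these 4, Zbtb7b ran the other way, at 0.978 to 1.10 TPM with ponatinib and 1.46 to 4.64 TPM with DMSO. The 7 B cell markers other than Ighm summed to 17.2 to 19.4 TPM with ponatinib and 7.35 to 13.9 TPM with DMSO, and Ighm, the largest of that list, was at 135 to 156 TPM with ponatinib and 124 to 159 TPM with DMSO. The 5 NK cell markers, which include Eomes, a gene CD8 T cells also use, summed to 33.9 to 42.8 TPM with ponatinib and 18.2 to 30.5 TPM with DMSO; nearly all of this was Eomes, and the other 4 summed to 0.492 to 0.894 TPM with ponatinib and 0.0191 to 0.156 TPM with DMSO. No marker was at 0 in all libraries, but Itgam, a defining marker of myeloid cells, was at most 0.185 TPM in any library. Ptprc, Ptpn6, Vav1 and Lcp2 are not confined to T cells, and CD4 T cells can express all of the members. The part of such other cells in the values was not tested. In libraries of bulk RNA, fewer cells of a type and less RNA per cell cannot be told apart.

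**Figure D1:**
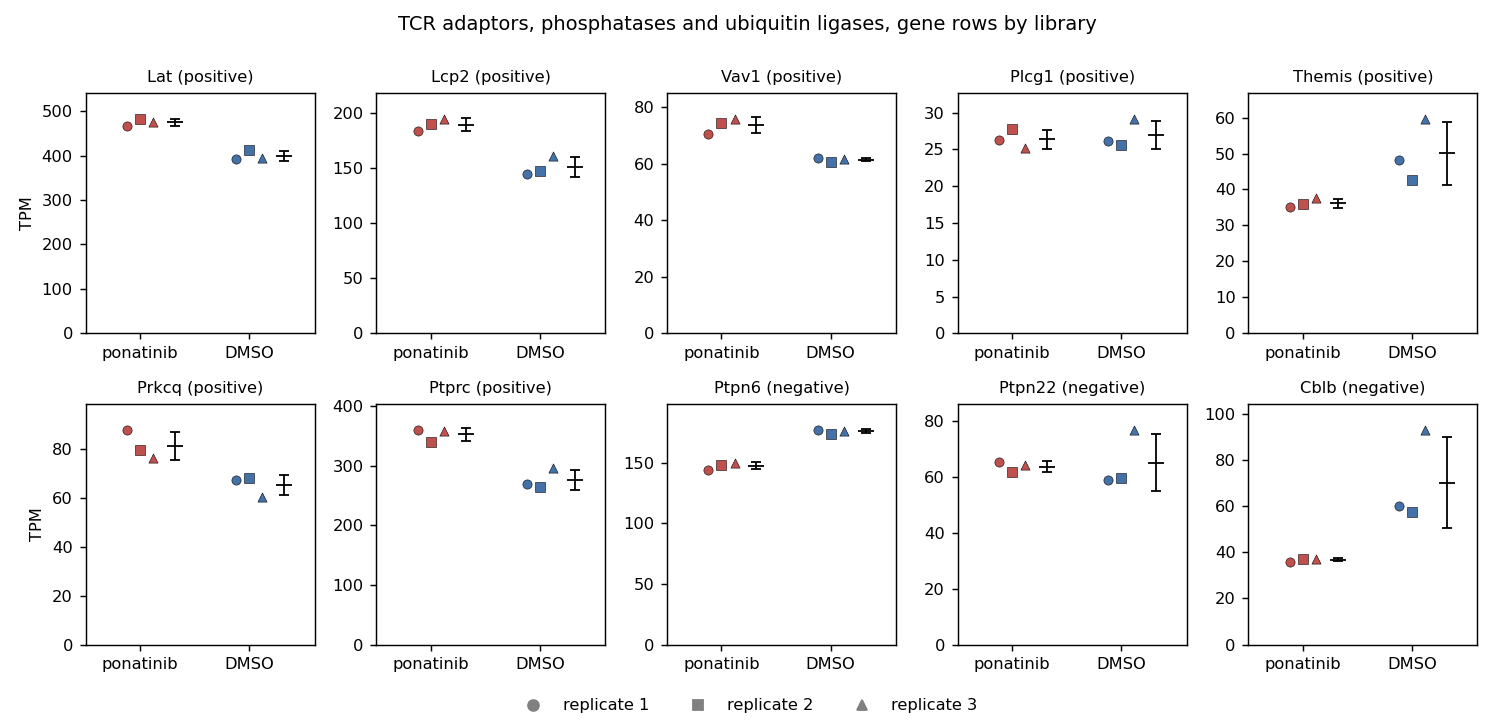
TPM of the 10 members in each library, ponatinib on the left and DMSO on the right, with the mean and SD (n = 3) beside the points. The groups did not overlap in 8 panels; in those of Plcg1 and Ptpn22 they did, and DMSO replicate 3 was the highest DMSO library for Lcp2, Plcg1, Themis, Ptprc, Ptpn22 and Cblb.

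Lat, which encodes the membrane scaffold on which the complex is built, was the most abundant member in both groups. It stood at 466, 483 and 475 TPM with ponatinib and at 393, 413 and 394 TPM with DMSO. Every ponatinib library lay above every DMSO library, and Lat rose by 0.25 on the log2 scale (SE 0.04, limma adjusted p = 0.00394). This call was lost when libraries were rescaled by medians of ratios, which removes the shift of 0.10 in the median gene (log2 fold change 0.14, adjusted p = 0.0748). Lat (ENSMUSG00000030742) lies on the minus strand of chromosome 7 of GRCm38, at 126363824 to 126369570.

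Lcp2, the cytosolic adaptor SLP-76 that couples LAT to VAV1 and PLC-gamma-1, stood at 183, 189.8 and 195 TPM with ponatinib and at 145, 147 and 161 TPM with DMSO. The groups were separate, and the log2 fold change of 0.33 (SE 0.06, limma adjusted p = 0.00369) kept its call under every alternative tried, from 0.22 to 0.37. Vav1, the exchange factor that activates RAC and reshapes the actin cytoskeleton, stood at 70.6, 74.4 and 75.9 TPM with ponatinib and at 61.9, 60.7 and 61.7 TPM with DMSO. The DMSO libraries were within 1.20 TPM of each other, and Vav1 rose by 0.26 (SE 0.05, limma adjusted p = 0.00642); with medians of ratios the rise was 0.15 (adjusted p = 0.0413).

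Plcg1, the lipase recruited to LAT, was the lowest member. It stood at 26.3, 27.7 and 25.2 TPM with ponatinib and at 26.2, 25.6 and 29.2 TPM with DMSO. The groups overlapped, and the log2 fold change was -0.03 (SE 0.07, 95% confidence interval -0.20 to 0.14, limma adjusted p = 0.771). The estimate for Lat, 0.25 (95% confidence interval 0.15 to 0.35), lies outside that interval. A difference between these genes was not tested. Prkcq, the kinase that links diacylglycerol to NF-kB in T cells, stood at 87.6, 79.5 and 76.3 TPM with ponatinib and at 67, 68.1 and 60.3 TPM with DMSO. All 3 ponatinib libraries were higher, with a log2 fold change of 0.31 (SE 0.07, limma adjusted p = 0.0116), and the call was lost with medians of ratios (0.21, adjusted p = 0.111) and with quantile normalization (0.24, adjusted p = 0.0725).

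Themis went the other way from the other called positive regulators. It stood at 35, 36.1 and 37.5 TPM with ponatinib and at 48.1, 42.5 and 59.7 TPM with DMSO. The groups were separate and the spread lay almost wholly in the DMSO libraries, of which replicate 3 was highest. Themis fell by 0.44 on the log2 scale (SE 0.11, limma adjusted p = 0.0164). Without DMSO replicate 3 the fold change was -0.31 (adjusted p = 0.00425). Leaving out ponatinib replicate 1 or 2 ended the call (adjusted p = 0.0608 and 0.0524).

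Ptprc encodes CD45, the abundant receptor phosphatase of white blood cells. Its gene row stood at 359.8, 339.9 and 358 TPM with ponatinib and at 269, 265 and 295.5 TPM with DMSO. The groups were separate, and the log2 fold change of 0.35 (SE 0.06, limma adjusted p = 0.00267) was the largest rise among the members' gene rows; it kept its call in every alternative, between 0.25 and 0.40. Of all kept rows, 12.5% had a larger rise.

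Ptpn6, the SHP-1 phosphatase that acts at inhibitory receptors and on proximal kinases, stood at 144, 148 and 149.6 TPM with ponatinib and at 177, 174 and 176 TPM with DMSO. Both groups were tight and separate, and Ptpn6 fell by 0.25 (SE 0.04, limma adjusted p = 0.00364), a call kept in every alternative, between -0.36 and -0.24. Ptpn22, the PEP phosphatase that dephosphorylates LCK and ZAP-70, stood at 65.5, 61.8 and 64.2 TPM with ponatinib and at 59.2, 59.7 and 76.9 TPM with DMSO. DMSO replicate 3 was above all others while the remaining DMSO libraries lay below every ponatinib library, so the sign turned with that library: -0.02 with it (SE 0.10, 95% confidence interval -0.25 to 0.21, limma adjusted p = 0.885) and 0.10 without it (adjusted p = 0.129).

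Cblb, the E3 ligase that sets the need for costimulation, changed most. It stood at 35.9, 36.9 and 37.2 TPM with ponatinib and at 60.2, 57.3 and 92.9 TPM with DMSO. The ponatinib libraries were within 1.33 TPM of each other, the DMSO libraries were all higher, and replicate 3 was far above the other DMSO libraries. The mean was 36.7 ± 0.696 TPM with ponatinib and 70.1 ± 19.8 TPM with DMSO (SD, n = 3 each), 1.91-fold higher in DMSO. The log2 fold change was -0.88 (SE 0.16, limma adjusted p = 0.00489), and only 1.62% of kept rows fell further. Without DMSO replicate 3 it was -0.66 (adjusted p = 3.16e-05), and every alternative that kept the gene called it lower. Cblb (ENSMUSG00000022637) lies on the plus strand of chromosome 16 of GRCm38, at 52031225 to 52208048.

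**Figure D2:**
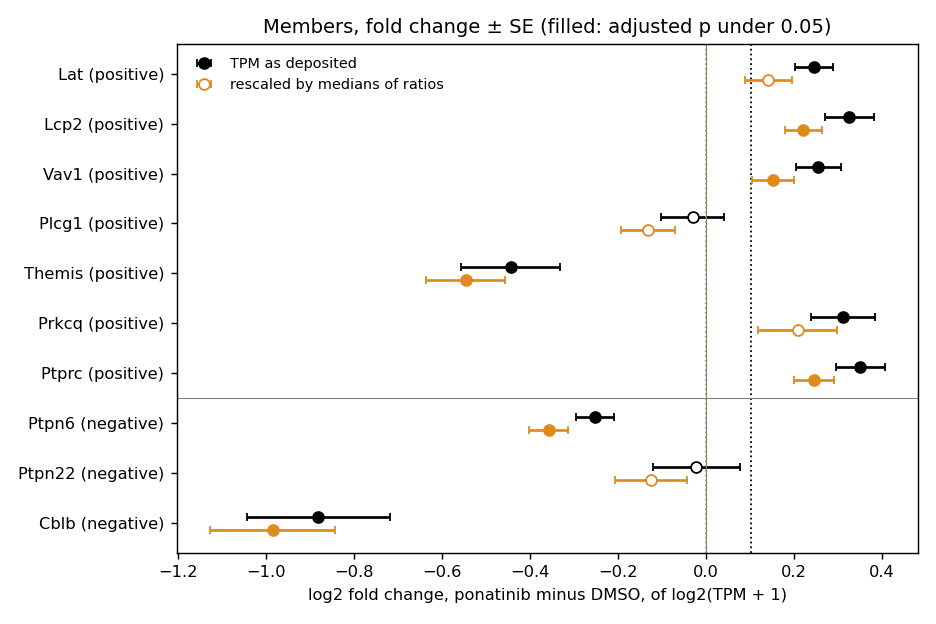
Log2 fold change, ponatinib minus DMSO, with its SE for each member, from TPM as deposited (black) and after rescaling by medians of ratios (orange); filled points had a limma adjusted p under 0.05 and dotted lines mark the median of all kept rows. Rescaling moved every member down by about the same amount, so Lat (0.14) and Prkcq (0.21) lost their calls while Ptpn6 (-0.36), Themis (-0.55) and Cblb (-0.98) kept theirs.

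The promoters of 4 members are shown because their levels moved in opposite directions, Lat and Lcp2 higher and Ptpn6 and Cblb lower with ponatinib. Each is the 250 bases before the RefSeq start on the gene's own strand, from RefSeq on GRCm38.p6, and all 10 members had at least 1 such window. Capitals mark matches on either strand to an ETS core (CGGAAG), a RUNX core (TGTGGT), an AP-1 site (TGANTCA) or an E-box (CACGTG), which do not overlap here.
Lat, chr7:126369569-126369818, minus strand: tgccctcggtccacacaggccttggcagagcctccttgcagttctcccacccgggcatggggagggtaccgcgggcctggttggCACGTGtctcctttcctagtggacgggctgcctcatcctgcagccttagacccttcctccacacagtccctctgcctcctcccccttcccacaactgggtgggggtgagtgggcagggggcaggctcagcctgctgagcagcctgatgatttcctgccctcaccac
Lcp2, chr11:34046678-34046927, plus strand: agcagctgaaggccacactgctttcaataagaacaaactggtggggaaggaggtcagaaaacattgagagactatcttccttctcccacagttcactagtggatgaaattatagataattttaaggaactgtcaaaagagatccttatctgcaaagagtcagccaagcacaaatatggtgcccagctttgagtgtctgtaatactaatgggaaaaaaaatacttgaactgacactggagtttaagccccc
Ptpn6, chr6:124738710-124738959, minus strand: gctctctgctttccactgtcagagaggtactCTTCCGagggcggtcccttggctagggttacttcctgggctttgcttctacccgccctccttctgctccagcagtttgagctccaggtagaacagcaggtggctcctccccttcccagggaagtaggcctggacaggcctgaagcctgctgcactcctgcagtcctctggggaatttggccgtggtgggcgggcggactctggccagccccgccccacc
Cblb, chr16:52031299-52031548, plus strand: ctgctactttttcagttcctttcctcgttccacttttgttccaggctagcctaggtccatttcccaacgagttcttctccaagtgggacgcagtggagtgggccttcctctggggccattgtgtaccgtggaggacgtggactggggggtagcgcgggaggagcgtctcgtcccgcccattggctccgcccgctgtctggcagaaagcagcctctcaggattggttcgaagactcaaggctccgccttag

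The Lat window held 1 E-box and the Ptpn6 window 1 ETS core, and the Lcp2 and Cblb windows held no match to these letters. G and C made up 65.2%, 41.2%, 63.2% and 58.8% of the windows of Lat, Lcp2, Ptpn6 and Cblb. Of 32851 windows of the same length over all genes, 13.6% held the ETS core, 14% the RUNX core, 6.75% the AP-1 site and 6.02% the E-box. The 10 members had 13 windows, and a member was counted if any of its windows held a match, whereas the shares above are per window. By that count 1 member had an ETS core, 1 had the E-box, 1 had a RUNX core (Ptpn22, with 2 matches in its second window) and 0 had an AP-1 site. The RefSeq start of Cblb lies 324 bases downstream of the start of the gene in GENCODE, at 52031225, so the whole Cblb window lies inside that gene. The RefSeq starts of Lat, Lcp2 and Ptpn6 lie 2, 8 and 5 bases from their GENCODE starts.

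The order of levels changed between the groups. With ponatinib it ran Lat, Ptprc, Lcp2, Ptpn6, Prkcq, Vav1, Ptpn22, Cblb, Themis and Plcg1, and only Cblb and Themis, at 36.7 and 36.2 TPM, overlapped their neighbour. With DMSO it ran Lat, Ptprc, Ptpn6, Lcp2, Cblb, Ptpn22, Prkcq, Vav1, Themis and Plcg1, and Cblb, Ptpn22 and Prkcq each overlapped the next gene in that order, the 4 genes from Cblb to Vav1 averaging 61.5 to 70.1 TPM. Lcp2 and Ptpn6 changed places, and Cblb, counted from the top, was at rank 8 with ponatinib and at rank 5 with DMSO.

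A ratio of 2 members within a library does not depend on a single factor applied to the whole library, as with medians of ratios. Quantile normalization is not such a factor, and the ratios were not computed after it. Of 21 ratios of a positive to a negative regulator, 18 were higher in every ponatinib library than in every DMSO library, 1 was lower and 2 overlapped. These ratios share members and are not independent; over all ordered pairs of kept rows, 26.4% were higher without overlap. Lcp2 over Ptpn6 was 1.27, 1.28 and 1.30 with ponatinib and 0.819, 0.845 and 0.913 with DMSO, so the adaptor exceeded the phosphatase in the ponatinib libraries and not in the DMSO libraries. Lat over Cblb was 13, 13.1 and 12.7 with ponatinib and 6.53, 7.21 and 4.24 with DMSO. The exceptions were Themis over Ptpn22, which was lower with ponatinib (0.535, 0.584 and 0.584, against 0.813, 0.712 and 0.775 with DMSO), and Themis over Ptpn6 and Plcg1 over Ptpn22, which overlapped.

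Averaged per library on the log2(TPM + 1) scale, the 7 positive regulators lay at 6.78, 6.79 and 6.79 with ponatinib and at 6.62, 6.60 and 6.70 with DMSO. The 3 negative regulators lay at 6.15, 6.15 and 6.17 with ponatinib and at 6.44, 6.41 and 6.77 with DMSO. The difference between both means was 0.63 ± 0.01 with ponatinib and 0.10 ± 0.14 with DMSO (SD, n = 3 each), and DMSO replicate 3, at -0.07, was the only library where the negative regulators had the higher mean. No test is given for a mean over chosen genes.

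**Figure D3:**
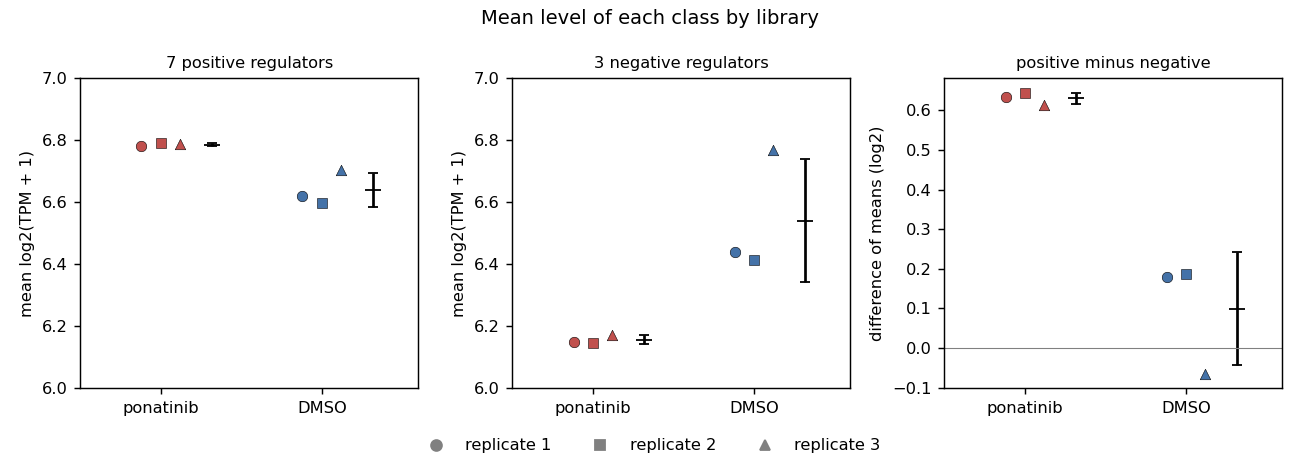
Mean log2(TPM + 1) of the 7 positive regulators, of the 3 negative regulators and their difference in each library, ponatinib on the left and DMSO on the right, with mean and SD (n = 3). The difference was 0.61 to 0.64 in the ponatinib libraries and -0.07 to 0.19 in the DMSO libraries; the level axes run from 6 to 7.

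The table also held rows with transcript identifiers. There were 15 for 7 of the members, all outside the basic set of GENCODE, and 9 reached a mean of 1 TPM. With gene and transcript rows fitted as separate features, 1 of the 9 was called, beside 8.18% of the 4182 transcript rows tested (2.87% lower and 5.31% higher) and 20.3% of all 14221 rows in that fit. That one was Ptpn22-204, annotated as a target of nonsense-mediated decay, the pathway that destroys messages with an early stop. It stood at 2.81, 3.21 and 2.80 TPM with ponatinib and at 5.15, 4.72 and 6.53 TPM with DMSO. The groups were separate, with a log2 fold change of -0.71 (SE 0.14, limma adjusted p = 0.0183), whereas the Ptpn22 gene row overlapped. As a share of all Ptpn22 rows it was 4.12%, 4.94% and 4.17% with ponatinib and 8.01%, 7.33% and 7.83% with DMSO. The call did not survive leaving out DMSO replicate 1 or any ponatinib library (adjusted p between 0.0541 and 0.0699), the replicate block (0.0534) or dropping the filter (0.0501).

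The largest transcript row was Ptprc-213, at 127, 112 and 97.6 TPM with ponatinib and 81.5, 87.3 and 118 TPM with DMSO. The groups overlapped (limma adjusted p = 0.324), and the row held 23.8% ± 2.43 of all Ptprc TPM with ponatinib and 25.3% ± 2.62 with DMSO (SD, n = 3 each). CD45 is known for exons near its start that T cells include or skip as they mature and become activated. Ptprc-213 is a transcript of 702 bases and 8 exons whose 3′ end is not annotated, and of the variable exons of 129, 147 and 141 bases in this stretch it contains the one of 147 bases, at 138120020 to 138120166 of chromosome 1, and not the other two. The basic transcript Ptprc-203 lacks all 3 and Ptprc-207 holds all 3, and neither had a row of its own. Lat-204, a coding transcript of 559 bases whose 3′ end is also not annotated, stood at 38.9, 37.6 and 33.5 TPM with ponatinib and at 30.4, 31.8 and 18.9 TPM with DMSO, without overlap and not called (limma adjusted p = 0.149). When transcript rows were added to their gene, all 8 called members kept their calls with Prkcq at 0.37, Ptprc at 0.33 and Themis at -0.40.

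**Figure D4:**
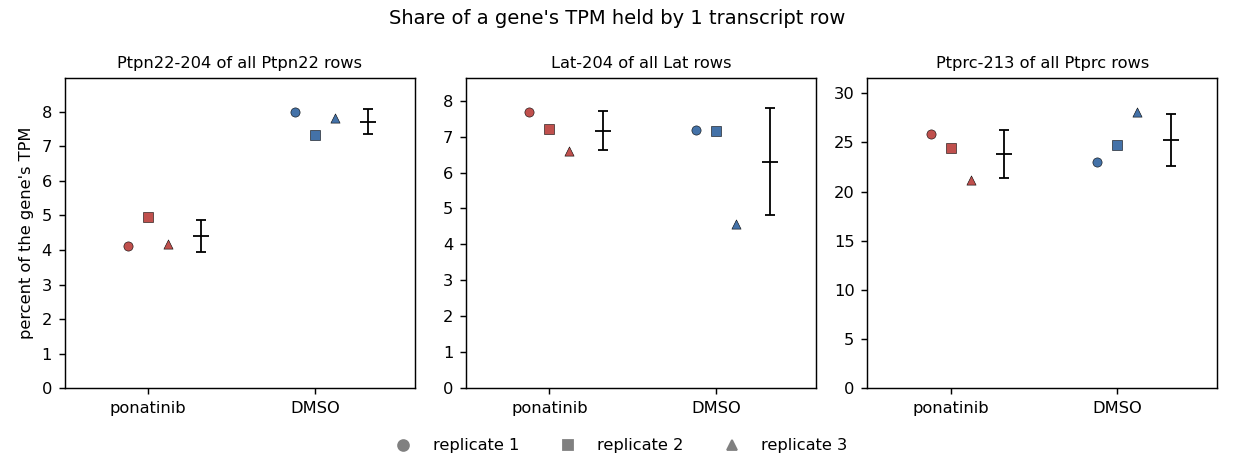
Percent of a gene's TPM, over its gene and transcript rows, held by Ptpn22-204, Lat-204 and Ptprc-213 in each library, with mean and SD (n = 3), ponatinib on the left. Ptpn22-204 held 4.12% to 4.94% with ponatinib and 7.33% to 8.01% with DMSO; the other panels overlap.

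Beyond the 10 members, 6 lists of genes from the same pathway held 91 genes, of which 65 were kept: 29 rose (44.6%) and 5 fell (7.69%), beside 29.9% and 9.88% of all kept rows, with a median of 0.17 beside 0.10. Among 7 kinases that act at the receptor 4 rose (Txk, Fyn, Map4k1 and Csk) and none fell, beside 29.9% and 9.88% of all kept rows. Medians of ratios gave 2 higher and 1 lower, beside 16.4% and 18% of all kept rows. Quantile normalization gave 3 higher and 1 lower, beside 19.7% and 15.5%. Txk, a TEC family kinase, stood at 14.9 ± 1.41 TPM with ponatinib and 9.93 ± 0.324 TPM with DMSO (SD, n = 3 each). Fyn stood at 147 ± 3.78 TPM with ponatinib and 117 ± 2.16 TPM with DMSO, and Map4k1, which encodes the inhibitory kinase HPK1, at 80.5 ± 3.22 TPM with ponatinib and 66.9 ± 1.26 TPM with DMSO. Lck, at -0.03 on the log2 scale, and Zap70, at 0.17, were not called; like Csk, the kinase that restrains LCK, they are named after their values were seen. The Map4k1 call was lost with medians of ratios (limma adjusted p = 0.0551), and the Csk call with both rescalings (0.263 and 0.0766) and without ponatinib replicate 2 or 3 (0.057 and 0.0515).

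Other adaptors and exchange factors showed 8 of 14 kept genes higher (57.1%) and 1 lower (7.14%), beside 29.9% and 9.88% of all kept rows. Tespa1, needed for receptor signalling in thymocytes, stood at 30.1 ± 1.07 TPM with ponatinib and 16.4 ± 1.46 TPM with DMSO, a log2 fold change of 0.84 (SE 0.08, limma adjusted p = 3.92e-04). Grap and Grap2, relatives of GRB2 of which Grap2 encodes the adaptor GADS that ties LAT to SLP-76, rose by 0.79 and 0.51. Lat, Grap2 and Lcp2, whose products form one bridge, were thus all called higher. Sh2d1a, the adaptor SAP, was the gene that fell, at 40.9 ± 6.8 TPM with ponatinib and 57.4 ± 11.4 TPM with DMSO; its adjusted p in limma was 0.0478, and the call was lost in 10 of the 15 alternatives that kept the gene, among them leaving out any library but DMSO replicate 2 (adjusted p from 0.0593 to 0.149). It was named after its value was seen.

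The list of inhibitory adaptors was mixed: it also held the surface receptors Cd5 and Cd6, the phosphatase Ubash3b, and Sh3bp2, which can promote signalling. None of these was called, and they are named after their values were seen. Of the list's 10 kept genes 4 rose and 2 fell, beside 29.9% and 9.88% of all kept rows. With either rescaling 2 rose and 2 fell. The shares of all kept rows were then 16.4% and 18% with medians of ratios, and 19.7% and 15.5% with quantile normalization. At a minimum mean of 1 TPM 8 of the list's 15 genes rose and 2 fell, beside 2398 and 958 of 10039 rows. With no filter 7 rose and 1 fell, beside 2297 and 940 of 15090 rows. Dok2 rose by 0.53, Sla2 by 0.35, Sit1 by 0.37 and Ubash3a by 0.36, Dok1 fell by 0.28, and Sla, whose product SLAP works with CBL to remove the receptor, fell by 0.60 to 72.8 ± 2.03 TPM with ponatinib, against 112 ± 17.3 TPM with DMSO. Sit1, Ubash3a and Dok1 were named after their values were seen. The Sla2 call was lost without ponatinib replicate 2 (adjusted p = 0.0574). Sit1 and Ubash3a each lost the call in 4 of 15 alternatives, both rescalings and leaving out ponatinib replicate 1 or 2 (Sit1) or 2 or 3 (Ubash3a), with adjusted p from 0.0532 to 0.107. Dok1 lost it in 5 of 15, with no filter and without DMSO replicate 1 or any ponatinib library (0.0571 to 0.1). Of 9 other phosphatases 5 rose (55.6%) and none fell, beside 29.9% and 9.88% of all kept rows. Those that rose included Ptpn7 (0.37), Inpp5d (0.34), which encodes the lipid phosphatase SHIP-1, and, named after their values were seen, Ptpn18 (0.29) and Ptpn11 (0.23). Ptpn18 lost its call in 6 of 16 alternatives, with no filter, both rescalings and without DMSO replicate 1 or ponatinib replicate 1 or 2 (adjusted p from 0.0578 to 0.174). Ptpn11 lost it in 7 of 15, with no filter, medians of ratios and without any library but DMSO replicate 3 (0.0531 to 0.107). Of 12 ubiquitin ligases and partners 5 rose (41.7%) and 1 fell (8.33%), beside 29.9% and 9.88% of all kept rows. After rescaling by medians of ratios 4 rose and 3 fell, beside 16.4% and 18% of all kept rows. Quantile normalization left 5 higher and 3 lower, beside 19.7% and 15.5%. Peli1, an E3 ligase that restrains T cell activation, rose by 0.67 and Sh3kbp1, a partner of CBL proteins, by 0.41; Ndfip2 (0.40) and Nedd4 (0.34) were named after their values were seen. Nedd4 lost its call in 5 of 15 alternatives, with transcript rows added and without DMSO replicate 1 or 2 or ponatinib replicate 2 or 3 (adjusted p from 0.0567 to 0.0817). Cbl itself, the closest relative of Cblb in the list, stood at 22 ± 1.14 TPM with ponatinib and 18 ± 1.33 TPM with DMSO (log2 fold change 0.27, SE 0.08, limma adjusted p = 0.0242), and was named after its value was seen. Its call was lost in 5 of 15 alternatives, namely medians of ratios (adjusted p = 0.0614) and leaving out DMSO replicate 1 or 2 or ponatinib replicate 2 or 3 (0.072 to 0.101). Usp18, a protease that removes ISG15 and belongs to the interferon response, fell by 2.61, with 2.58 to 4.26 TPM under ponatinib and 15.7, 16.6 and 60.6 TPM under DMSO; the highest was replicate 3, and without DMSO replicate 3 it was under the minimum mean.

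The list for the branch that runs from diacylglycerol to RAS and NF-kB also held genes of the calcium arm. Of these, Stim1, Orai1 and Itpkb were kept and not called, and they are named after their values were seen. Of the 13 kept genes of the whole list, 3 rose (23.1%) and 1 fell (7.69%), beside 29.9% and 9.88% of all kept rows. Rasgrp1, which activates RAS, rose by 0.47 and Rasa1, which turns RAS off, by 0.42. Malt1, the protease that acts below protein kinase C theta, fell to 26.3 ± 1.87 TPM with ponatinib, against 43.6 ± 4.9 TPM with DMSO (log2 fold change -0.71, SE 0.09, limma adjusted p = 0.00122), while Prkcq rose.

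**Figure D5:**
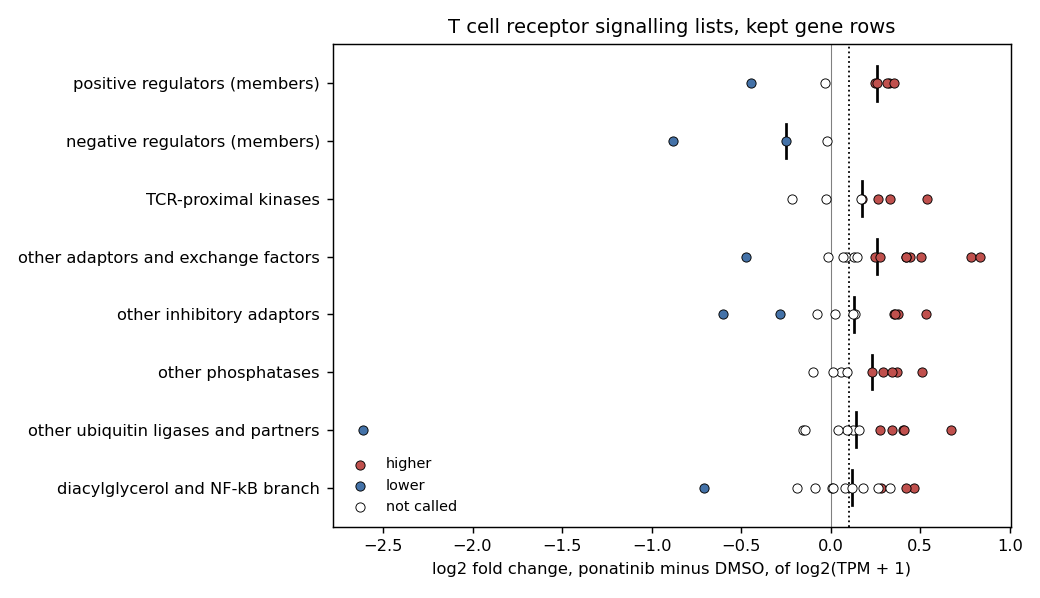
Log2 fold change, ponatinib minus DMSO, of every kept gene row in the members' classes and in 6 other lists of the pathway; red points rose, blue points fell and white points were not called, bars mark list medians and the dotted line the median of all kept rows, 0.10. List medians lay between 0.12 and 0.26 except that of the negative regulators, -0.25, and the point at -2.61 is Usp18.

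By the distance between profiles over the 6 libraries, each centred on its own mean, the kept rows most like Ptprc, the positive regulator with the smallest p, were Vamp3, Hnrnpr and Tnks2, at distances of 0.04, 0.05 and 0.05 on the log2 scale. Those most like Ptpn6, the negative regulator with the smallest p, were Fem1b, Psmd8 and Them6, at 0.03, 0.06 and 0.06.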

How the data were processed

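RNA-seq libraries had been prepared from total RNA with a NEBNext Ultra II RNA kit, per the labels' protocols, and the sources used here do not give strandedness. Tools listed without role or order, per the submitters' processing notes, are Salmon 1.5.1, fastp 0.19.5 and DESeq2 1.22.1, with the build GRCm38. The deposited table is named for normalized counts, but every column adds up to 1000000, so its values were taken as TPM made by the authors; the sources used here do not tell how transcripts were summed. TPM keep no depth, so read numbers are unknown and no counting interval is given.

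Of 43072 rows, 22095 carried gene and 20977 transcript identifiers; 22011 and 20793 were found in GENCODE M21 (GRCm38), which gave symbols and positions. Gene rows held 92.9% to 93.2% of TPM. Of the 10 members, 9 overlap another annotated gene, 7 of them on the opposite strand, so with unknown strand their reads may be shared.

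Gene rows with a mean of at least 10 TPM were transformed to log2(TPM + 1), a scale that understates low genes' changes, and the groups were compared by limma 3.58.1 (eBayes with trend) in R 4.3.3, two-sided, with Benjamini-Hochberg adjustment over all 6466 rows. Transcript rows were fitted beside gene rows at a minimum mean of 1 TPM. Every adjusted p is from limma. The fit was tested on simulated data. Alternatives changed the filter, pseudocount, scaling, variance model, rows and libraries, or added the replicate number as a block.

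Members and lists were chosen with earlier results of these data known. Named genes are the 10 members, up to 3 genes per other list with the smallest p, defining markers and the nearest profiles; others are marked where named. Some genes of these lists are not reported here by name.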

Additional observations from a re-analysis of the deposited data

How the results depend on the processing

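Lcp2, Vav1, Ptprc, Ptpn6 and Cblb kept direction and call under every alternative that kept the gene; a minimum mean of 100 TPM left 4 members, of which 3 were higher and 1 lower. With medians of ratios 3 members were higher, the median of the positive regulators was 0.15 (0.19 with quantile normalization), and 1059 rows were higher and 1166 lower, against 1931 and 639; 47.6% of calls were then higher, against 75.1%. Quantile normalization gave 1276 and 1001 (56%), and a minimum of 100 TPM gave 428 and 137. With 1 library left out, 1138 to 2745 rows were higher and 463 to 677 lower; the lowest counts of higher rows, 1197 and 1138, came without ponatinib replicates 2 and 3. Members higher stayed at 5 and members lower at 2 to 3. Other pathway genes called higher numbered 7 at a minimum of 100 TPM and 20 to 35 with 1 library left out; those called lower numbered 3 with no filter, 0 at 100 TPM, 9 with either rescaling and 3 to 6 with 1 library left out, 3 without DMSO replicate 1 and without ponatinib replicates 1 and 3. The causes were not tested.

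With 1 library left out, values near 0 changed sign: Plcg1 ranged from -0.0663 to 0.0254 and Ptpn22 from -0.0857 to 0.1012, both highest without DMSO replicate 3, and the transcript rows Themis-204 from -0.0262 to 0.2225, Plcg1-206 from -0.0314 to 0.2438 and Themis-205 from -0.6518 to 0.1821.

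With the replicate number as a block, 1911 rows were higher and 646 lower, and 5 and 3 members. The deviations of same-numbered libraries from their group means had correlations of -0.098, 0.13 and 0.0094 across genes. Not every library correlated best with its own number. With so few libraries, such correlations cannot tell whether same-numbered libraries shared a mouse or culture. None of the 10 members changed its call, and among their transcript rows Ptpn22-204 lost it. Depth is unknown for TPM, so counting error could not be separated from replicate spread.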
